A study of Mus musculus with 6 samples.

Results

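The clustered replication-dependent histone genes were followed in primary stromal cells grown out of mouse prostate, with and without a stabilised form of β-catenin. Members were all gene symbols that begin with Hist1h, Hist2h, Hist3h or Hist4h. There were 68 of them among the 24346 symbols in the files, namely 6 H1, 18 H2A, 19 H2B, 12 H3 and 13 H4 genes, and 54 lie in the Hist1 cluster, 10 in Hist2, 3 in Hist3 and 1 in Hist4.

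The vector group was 3 libraries of cells infected with the lentivirus FU-CGW, and the S37A group was 3 libraries of cells infected with FU-CGW carrying a cDNA for S37A β-catenin, in which residue 37 is alanine in place of serine. β-catenin (Ctnnb1) carries the canonical Wnt signal to the nucleus, and phosphorylation of that serine helps to mark the protein for breakdown. Both groups came from prostates of C57BL/6 mice aged 8 to 12 weeks, grew on collagen in medium with serum and 1e-10 M dihydrotestosterone (DHT), went through a 30 min attachment step that removed unattached cells, and were used within 3 weeks of dissociation. Nothing in the labels says that the 3 libraries of a group are separate mice or cultures, so every p-value refers to the spread among the 6 libraries, and that spread may be technical. The cDNA was expressed from a virus on top of the cells' own Ctnnb1, and the share of cells that carried the virus is not given in the sources used here.

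Most of the histone that packs newly copied DNA is made from genes that lie in a few clusters, in many near-identical copies for each of the nucleosome proteins H2A, H2B, H3 and H4 and the linker H1. These genes have no introns in their main form, are transcribed in S phase, and end their mRNA in a stem-loop in place of a poly(A) tail. The stem-loop is bound by Slbp and cut free with the help of the U7 small nuclear RNA, and the mRNA is degraded when DNA synthesis stops. Some of the same genes also give longer polyadenylated mRNAs in cells that are leaving the cycle. The libraries were primed with both random and oligo(dT) primers, and which priming event gave a fragment is not recorded in the files, so the 2 kinds of mRNA were not separated.

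A search of the annotated transcripts (GENCODE M21, mm10) for the stem-loop found it in 44 of the 68 histone genes (64.7%) and in 11 of 21810 other protein-coding genes (0.0504%). The pattern was GG, 3 bases of any kind, TTTT, 1 base, A, 3 bases and CC, with the first 6 bases able to pair with the last 6. The stem-loop is shown for 6 genes that the results below turn on, with the 16 bases of stem and loop in capitals. Their positions are chr13:23739512-23739527 (plus strand) for Hist1h1c, chr13:23683477-23683492 (minus) for Hist1h2ac, chr13:22043638-22043653 (plus) for Hist1h2bj, chr13:23576244-23576259 (plus) for Hist1h3d, chr3:96238485-96238500 (minus) for Hist2h3c2 and chr13:22040966-22040981 (minus) for Hist1h4i.
Hist1h1c: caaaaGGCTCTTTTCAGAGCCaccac
Hist1h2ac: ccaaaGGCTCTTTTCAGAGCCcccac
Hist1h2bj: ccaaaGGCTCTTTTCAGAGCCacgca
Hist1h3d: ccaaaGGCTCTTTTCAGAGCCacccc
Hist2h3c2: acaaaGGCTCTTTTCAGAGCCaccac
Hist1h4i: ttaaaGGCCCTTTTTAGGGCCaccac

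Within H1, H2A, H2B and H3 every stem found had the same letters. The form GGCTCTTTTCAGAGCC was found in 3 H1, 10 H2A, 8 H2B and 5 H3 genes, and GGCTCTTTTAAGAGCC, which differs from it in the loop, in 1 H1, 2 H2B and 3 H3 genes. Another loop, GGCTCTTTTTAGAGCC, was found in 1 H2A gene, Hist2h2ac. All 11 H4 genes with a stem-loop had another stem: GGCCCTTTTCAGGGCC in 7, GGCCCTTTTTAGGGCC in 2 and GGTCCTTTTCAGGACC in 2. Where no stem-loop was found (24 genes), the annotated transcript did not contain these letters, which says nothing about the gene itself.

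Histone mRNA as a whole was lower in the S37A libraries as the authors scaled them. The unit throughout is FPKM, a number of fragments scaled to transcript length and to library size, added up over the transcript models of a symbol. The 68 genes together had 1047, 1016 and 975.3 FPKM with the vector and 919.8, 891 and 884.8 FPKM with S37A, a ratio of means of 0.887. All 3 S37A libraries lay below all 3 vector libraries. After median-ratio scaling, which sets the libraries to a common median gene, the sums were 1030, 981.1 and 951.6 with the vector and 954.9, 907.1 and 901.7 with S37A, a ratio of 0.933, and the groups overlapped. In these bulk libraries fewer cells making histone mRNA and less of it per cell cannot be told apart. No p is given for a sum over genes.

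Of the 68 genes, 56 averaged 0.5 FPKM or more and were tested, together with all other genes at that level, with limma on log2(FPKM + 1). A gene is called here when its Benjamini-Hochberg adjusted p over all 12022 tested genes is under 0.05, and every difference is S37A minus vector in log2(FPKM + 1), so that the change of low genes is understated. By this rule 23 histone genes fell (41.1% of those tested), beside 19.9% of all tested genes called lower. A single gene, Hist2h3c2, rose, beside 6.06% of all tested genes called higher, and 32 were not called. The median difference of the 56 was -0.22, and that of all tested genes was -0.07. In 35 of the 56 (62.5%) all S37A libraries lay below all vector libraries, beside 36.5% of all tested genes, and in 1 all lay above, beside 11.3% (47.8% of all tested genes were apart in either direction). The falls were modest, from -0.16 to -0.58, with a median of -0.32 over the 23 called genes.

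The count of falls depended on the scaling and on single libraries, for histone genes and for all genes alike. With median-ratio scaling of the libraries 13 histone genes were lower and 1 higher, beside 8.14% of all genes lower and 10.3% higher. With quantile normalization the counts were 9 lower and 1 higher, beside 7.96% and 9.10%, and without the 100 most abundant genes 17 lower and 1 higher, beside 12.6% and 7.55%. Without vector 3, S37A 2 or S37A 3 the count of falls was 15, 11 and 10, and the share of all genes called lower was then 10.45%, 7.22% and 5.04%. With the replicate number as a block in the fit 15 histone genes were lower and none was higher, beside 9.92% of all genes lower and 3.68% higher.

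**Figure D1:**
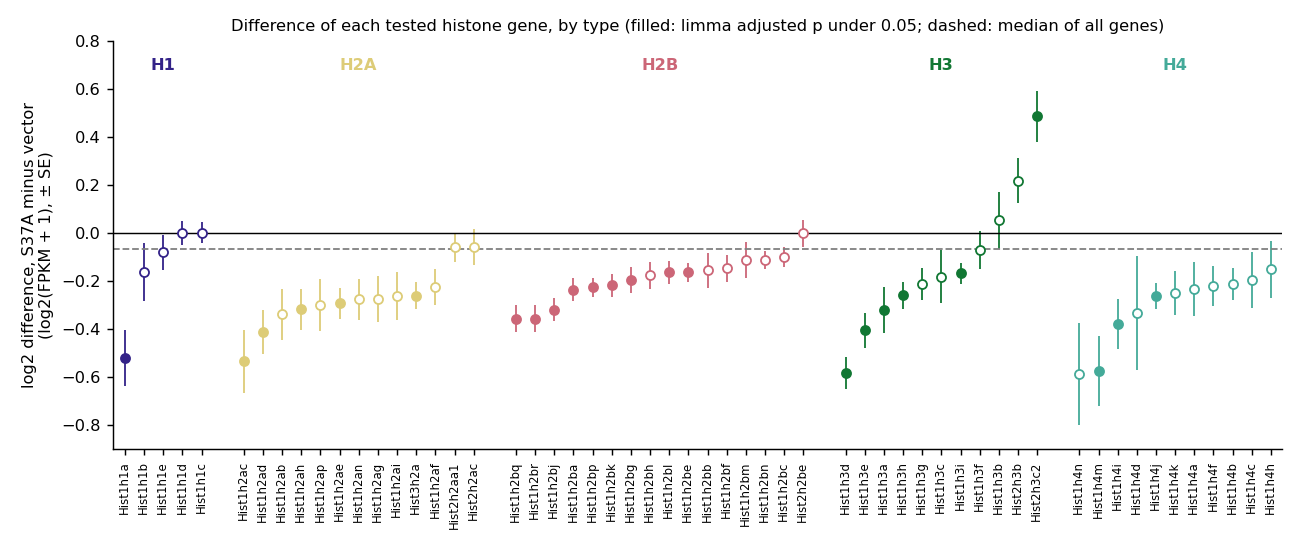
Difference of each of the 56 tested histone genes, S37A minus vector, in log2(FPKM + 1) with its standard error, ordered within each type; filled points have a limma adjusted p under 0.05, and the dashed line is the median of all tested genes, -0.07. Called falls occur in all 5 types, and the only called rise is Hist2h3c2, at 0.49.

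The 12 genes below the filter complete the family. Hist1h2aa, Hist1h2ao, Hist2h2aa2 and Hist2h3c1 were listed at 0 in all 6 libraries. The last 3 have near-identical copies above 0 (Hist1h2ap, Hist2h2aa1 and Hist2h3c2), and how reads were divided between such copies is not recorded in the files, so a 0 there is no measure of the copy. The other 8 were above 0 in at least 1 library: Hist1h1t, Hist1h2ak, Hist2h2ab, Hist2h2bb, Hist2h4, Hist3h2ba, Hist3h2bb-ps and Hist4h4. The nearest below the limit were Hist1h2ak, with a mean of 0.466 FPKM, and Hist2h4, with 0.359 FPKM, and the nearest above it Hist2h2be, with 0.607 FPKM, and Hist1h1b, with 0.985 FPKM.

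Linker histone H1 had a summed ratio of 0.984 as the authors scaled the libraries and of 1.034 after median-ratio scaling. Of the 5 tested H1 genes 1 fell, beside 19.9% of all tested genes called lower. The H1 genes summed to 131.1, 125.3 and 117.8 FPKM with the vector and 122.6, 121.2 and 124.2 FPKM with S37A, with overlap. Most of this sum is Hist1h1c (chr13:23738807-23739531), a linker variant also made outside S phase, at 109.4, 105.2 and 97.95 FPKM with the vector and 104.3, 102 and 106.4 FPKM with S37A. Its difference was 0.00 ± 0.05 (SE, n = 3 per group; limma adjusted p = 0.978).

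Hist1h1a, a linker variant tied to replication, had 4.236, 3.686 and 3.021 FPKM with the vector and 2.674, 2.158 and 1.877 FPKM with S37A. The groups did not overlap, and the gene fell by 0.52 (log2, SE 0.12, limma adjusted p = 0.0216). That call was lost with no filter on low genes (0.0508) and without vector 2, S37A 2 or S37A 3 (limma adjusted p = 0.0592, 0.0664 and 0.0688). Hist1h1d, with group means of 8.453 and 8.452 FPKM, and Hist1h1e, with 7.309 and 6.883 FPKM, overlapped between the groups. Hist1h1b had means of 1.087 and 0.8824 FPKM and a difference of -0.16 (limma adjusted p = 0.335).

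**Figure D2:**
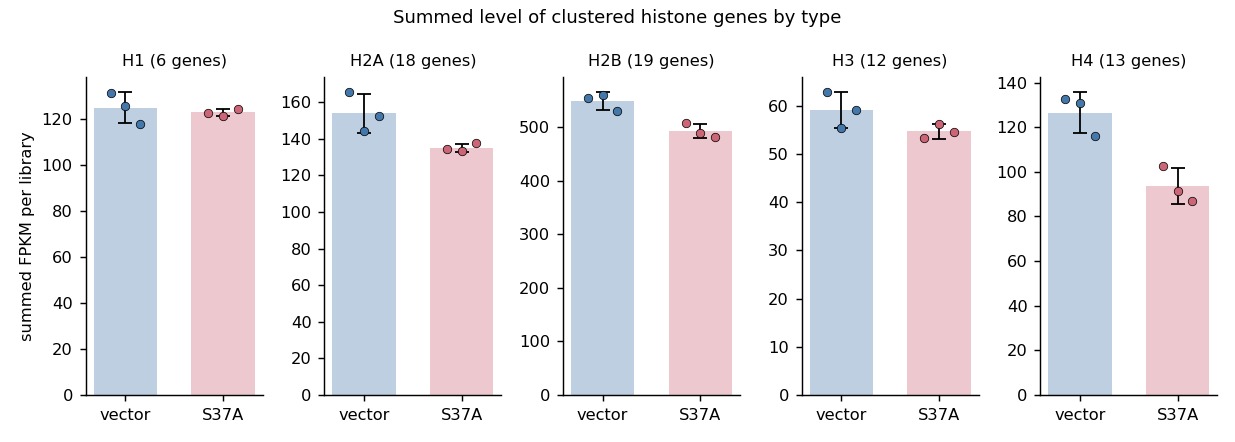
Summed FPKM of all genes of each histone type, with a point for each library, a bar for the group mean and an error bar for the SD over 3 libraries; each panel has its own axis from 0. The groups are apart for H2A, H2B and H4 and overlap for H1 and H3 (after median-ratio scaling only H4 stays apart), and H4 has the lowest S37A over vector ratio, 0.741.

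H2A genes summed to 165.5, 144.5 and 152.3 FPKM with the vector and 134.4, 133.2 and 137.5 FPKM with S37A, a ratio of 0.876 with no overlap (162.7, 139.5 and 148.6 against 139.6, 135.6 and 140.2, with overlap, after median-ratio scaling). All 13 tested genes had a negative difference (12 after median-ratio scaling or quantile normalization), in 11 of them the groups were apart, and 5 fell. Of all tested genes 36.5% had all S37A libraries lower and 19.9% were called lower. More of this sum than all other H2A genes together came from Hist2h2aa1, at 89.55, 76.58 and 83.63 FPKM with the vector and 77.62, 84.15 and 77.38 FPKM with S37A. It was not called (-0.06, limma adjusted p = 0.487), and the groups overlapped. Its FPKM is the sum over a duplicated pair of placements on chromosome 3 that share their reads.

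The H2A falls in Hist1 were in genes under 10 FPKM. Hist1h2ac had 5.516, 5.27 and 3.983 FPKM with the vector and 3.765, 2.561 and 2.936 FPKM with S37A, a difference of -0.54 (SE 0.13, limma adjusted p = 0.0273). Hist1h2ad had 5.527, 5.794 and 5.502 FPKM with the vector and 4.421, 3.256 and 4.289 FPKM with S37A, a difference of -0.41 (SE 0.09, limma adjusted p = 0.0202). In both, every S37A library was below every vector library. Hist1h2ah had 3.476, 3.085 and 3.063 against 2.533, 1.98 and 2.643 FPKM (-0.32, limma adjusted p = 0.0337), and Hist1h2ae, named after its values were seen, fell from a mean of 3.279 to 2.491 FPKM (-0.29, limma adjusted p = 0.0208), with its call lost with the replicate block (0.0609), under quantile normalization (0.0585) and without vector 3, S37A 1 or S37A 3 (limma adjusted p = 0.0549 to 0.0605).

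Hist1h2ab was higher in level, with 12.55, 8.935 and 10.79 against 8.374, 7.723 and 8.578 FPKM, and was not called (-0.34, limma adjusted p = 0.0513). Under quantile normalization Hist3h2a was the only H2A gene called. Hist1h2ac lost its call there and with no filter (0.0615 in both), and without vector 1, vector 2, S37A 2 or S37A 3 (limma adjusted p = 0.0581 to 0.0815). Hist1h2ad lost it under quantile normalization (0.0506) and without vector 2 or vector 3 (limma adjusted p = 0.0573 and 0.0504). Hist1h2ah lost it under each of the 3 other scalings (0.0553 to 0.0974), with no filter (0.0723), with the replicate block (0.0502) and without any 1 of the 6 libraries (limma adjusted p = 0.0547 to 0.0713). Hist1h2ab was called in 5 other fits (lowest limma adjusted p = 0.00977), among them with the replicate block (0.0474) and without vector 2 (limma adjusted p = 0.0192).

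Hist3h2a, the H2A gene of the Hist3 cluster (stem-loop at chr11:58955172-58955187), had 19.65, 18.9 and 19.38 FPKM with the vector and 15.81, 14.8 and 17.32 FPKM with S37A. The vector values lay close together and above all S37A values, and the gene fell by 0.26 (log2, SE 0.06, limma adjusted p = 0.0188). Only 12.3% of its coding sequence, read in windows of 50 bases, occurs in another histone gene. The call was lost under median-ratio scaling (-0.19, limma adjusted p = 0.0562) and without vector 3 or S37A 2 (limma adjusted p = 0.053 and 0.0527).

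H2B genes made up 54.1% of all histone FPKM in the vector libraries. They summed to 555, 560.5 and 529.9 FPKM there and to 506.7, 488.8 and 481.4 FPKM in the S37A libraries, a ratio of 0.898 with no overlap (545.6, 541 and 517.1 against 526.1, 497.6 and 490.6, with overlap, after median-ratio scaling). All 16 tested genes had a negative difference (15 after each of the 3 other scalings), the groups were apart in 12, and 9 fell. Of all tested genes 36.5% had all S37A libraries lower and 19.9% were called lower. The H2B falls numbered 5 under median-ratio scaling, 5 under quantile normalization and 4 without S37A 3. The share of all genes called lower was then 8.14%, 7.96% and 5.045%. The most abundant histone mRNA of all was Hist1h2bc, at 267.9, 265.1 and 256.6 FPKM with the vector and 253.1, 250.8 and 233.1 FPKM with S37A, which do not overlap but were not called (-0.10, limma adjusted p = 0.108). All of its FPKM was assigned to a spliced model of 728 bases that ends far downstream, and the unspliced model of 469 bases was listed at 0.

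Of the next H2B genes by level, Hist1h2bg (stem-loop at chr13:23571843-23571858) fell. It had 69.06, 72.37 and 65.21 FPKM with the vector and 63.03, 56.53 and 60.39 FPKM with S37A (-0.20, SE 0.05, limma adjusted p = 0.0352). Hist1h2bf had 35.26, 39.36 and 36.13 against 35.43, 32 and 32.27 FPKM, with overlap, and was not called (-0.15, limma adjusted p = 0.0888). The call of Hist1h2bg was lost under each of the 3 other scalings (-0.12 and limma adjusted p = 0.149 with median-ratio scaling), with no filter (0.0629), with the replicate block (0.0735), and without vector 1, vector 2, S37A 2 or S37A 3 (limma adjusted p = 0.0628 to 0.1).

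Hist1h2bj had the smallest p of the H2B genes, at 24.24, 25.32 and 22.32 FPKM with the vector and 18.88, 18.82 and 19.25 FPKM with S37A. The S37A values lay within 1 FPKM of each other and below all vector values, and the difference was -0.32 (SE 0.05, limma adjusted p = 0.00847). Hist1h2bq had 6.824, 6.443 and 5.842 against 4.817, 4.767 and 4.645 FPKM (-0.36, limma adjusted p = 0.00919). Hist1h2br had 6.822, 6.436 and 5.838 against 4.813, 4.765 and 4.645 FPKM and has an identical coding sequence, so the pair is not a pair of independent measurements. These 3 genes kept their call in all 16 other fits.

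Hist1h2ba, best known as a testis form of H2B and named after its values were seen, had 14.86, 15.83 and 14.1 FPKM with the vector and 12.52, 12.68 and 12.35 FPKM with S37A (-0.24, limma adjusted p = 0.0154; 0.0592 without S37A 3). Of its coding windows 37.7% occur in another histone gene. Its testis-type neighbour Hist1h2aa was listed at 0, and how far reads of other H2B genes enter its level was not tested.

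**Figure D3:**
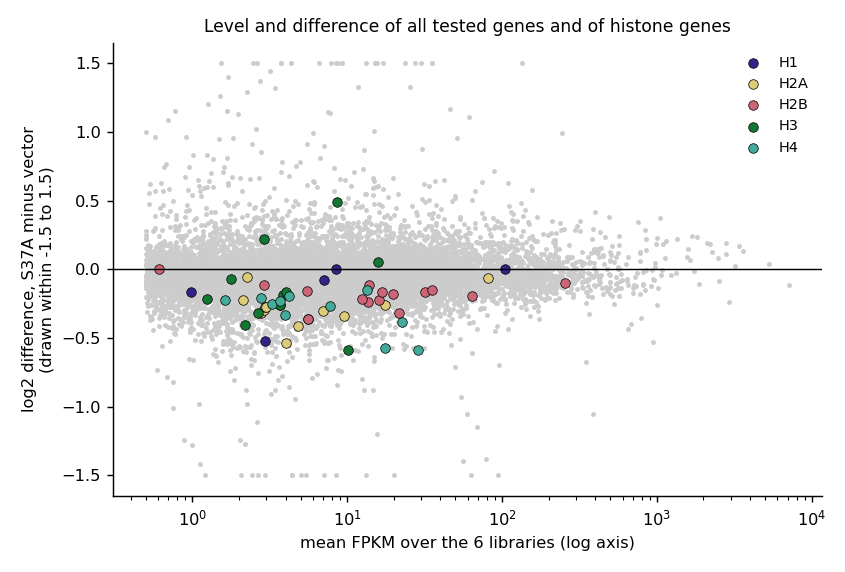
Mean FPKM over the 6 libraries (log axis) against the log2 difference, S37A minus vector, for all 12022 tested genes (grey) and the 56 tested histone genes (coloured by type); differences beyond 1.5 are drawn at the edge. Of the histone genes 52 lie below 0 (49 after median-ratio scaling), and the 3 most abundant, Hist1h2bc, Hist1h1c and Hist2h2aa1, lie between 0.00 and -0.10. The median of all tested genes is itself at -0.07 (-0.005 after median-ratio scaling), and the share of all genes below 0 is not given.

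The H3 genes called lower all lay in Hist1, and the H3 gene called higher lay in Hist2. The 12 genes summed to 62.86, 55.38 and 59.11 FPKM with the vector and 53.27, 56.29 and 54.66 FPKM with S37A, with overlap. Split by cluster, the Hist1 H3 genes summed to 53.05, 46.79 and 48.71 against 41.72, 40.65 and 41.46 FPKM, and the Hist2 H3 genes to 9.813, 8.595 and 10.4 against 11.55, 15.64 and 13.2 FPKM. Both splits leave the groups apart, in opposite directions, before and after median-ratio scaling. The Hist2 sum was 18.5%, 18.4% and 21.4% of the Hist1 sum in the vector libraries and 27.7%, 38.5% and 31.9% in the S37A libraries, a ratio within each library that a change of the library's scale factor leaves as it is. Most of the Hist2 sum is the single gene Hist2h3c2, with means of 6.989 and 10.25 FPKM within 9.602 and 13.47 FPKM for vector and S37A. The Hist2 sum thus largely restates that gene, and 2 Hist2 H3 genes were tested.

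Of the 11 tested H3 genes 5 fell, all in Hist1, and 1 rose, beside 19.9% of all tested genes called lower and 6.06% higher. The H3 falls numbered 3 under median-ratio scaling and 2 under quantile normalization. The share of all genes called lower was then 8.14% and 7.96%. Hist1h3d (chr13:23575763-23576266) had the largest called fall of any histone gene in log2(FPKM + 1), at 11.51, 13.35 and 12.11 FPKM with the vector and 8.074, 7.244 and 8.351 FPKM with S37A (-0.58, SE 0.07, limma adjusted p = 0.00434). Hist1h3e had 2.784, 2.517 and 2.643 against 1.964, 1.831 and 1.485 FPKM (-0.41, SE 0.07, limma adjusted p = 0.0124). In both the groups were well apart, and both kept their call in every other fit that tested them (16 for Hist1h3d and 15 for Hist1h3e).

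Hist1h3a had 3.544, 2.609 and 3.055 against 2.003, 2.241 and 2.51 FPKM (-0.32, limma adjusted p = 0.0448). This call held in 5 of 15 other fits, and was lost under each of the 3 other scalings and with no filter (limma adjusted p = 0.0638 to 0.108), with the replicate block (0.0841) and without any library but vector 2 (limma adjusted p = 0.0667 to 0.115). Hist1h3b, the most abundant H3 gene, had 18.53, 12.47 and 15.8 against 16.46, 15.8 and 15.8 FPKM. Its S37A values fell inside the range of the vector values (0.05, limma adjusted p = 0.76), and without vector 2 its difference was -0.09.

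Hist2h3c2 was the only called rise. It had 7.254, 6.242 and 7.47 FPKM with the vector and 8.829, 11.99 and 9.944 FPKM with S37A, all above the vector values, a difference of 0.49 (SE 0.11, limma adjusted p = 0.0193). The exact permutation test gave p = 0.1, the smallest that 3 against 3 libraries allow. The call was lost with the replicate block (limma adjusted p = 0.0553), without vector 2 (0.0539) and without S37A 3 (0.0578), and stood in the other 12 fits that tested the gene. Its FPKM is the sum over 2 placements of 1 sequence, chr3:96238479-96239127 and chr3:96246700-96247348, which share their reads, and 100% of its 50-base coding windows occur in another histone gene. Hist2h3b, its neighbour in the cluster and named outside the rule for named genes, had 2.559, 2.352 and 2.929 against 2.724, 3.655 and 3.261 FPKM. It was not called (0.22, limma adjusted p = 0.118).

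**Figure D4:**
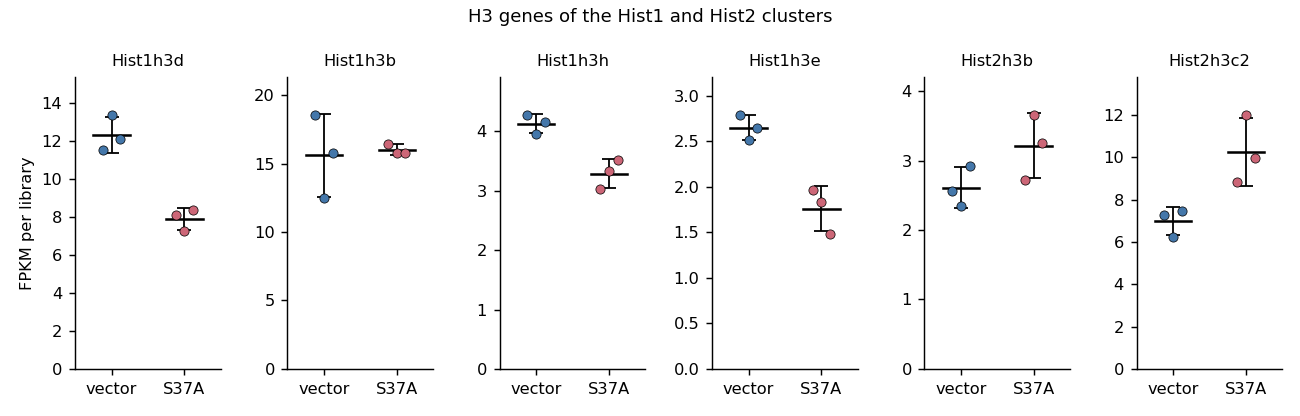
FPKM of 4 H3 genes of the Hist1 cluster and 2 of the Hist2 cluster, with a point for each library, a line for the group mean and an error bar for the SD over 3 libraries; each panel has its own axis from 0. Hist1h3d, Hist1h3h and Hist1h3e are lower in all S37A libraries, Hist1h3b and Hist2h3b overlap, and Hist2h3c2 is higher in all S37A libraries. Hist1h3h and Hist2h3b were added outside the rule for named genes.

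H4 had the lowest ratio of summed FPKM of any type, 0.741. The sums were 132.8, 130.7 and 116.1 FPKM with the vector and 102.7, 91.51 and 87 FPKM with S37A, with no overlap, also after median-ratio scaling. Much of this fall lay in Hist1h4m and Hist1h4n, which have identical coding sequence. Their means were 21.37 and 34.49 FPKM with the vector and 13.84 and 22.93 FPKM with S37A, within H4 means of 126.5 and 93.74 FPKM. The H4 ratio without this pair was not computed. All 11 tested genes had a negative difference under each of the 4 scalings, and the share of all genes below 0 is not given. The groups were apart in 5 of the 11, beside 36.5% of all tested genes with all S37A libraries lower. The 3 that fell were Hist1h4i, Hist1h4j and Hist1h4m, beside 19.9% of all tested genes called lower. With 11 genes, neither count lies far from these shares.

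Hist1h4i (stem-loop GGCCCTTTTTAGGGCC, above) had 26.08, 28.09 and 22.93 against 18.05, 22.71 and 17.92 FPKM, just without overlap (-0.38, SE 0.10, limma adjusted p = 0.0356). Hist1h4j had 8.693, 8.06 and 8.919 against 6.877, 7.38 and 6.631 FPKM (-0.26, SE 0.05, limma adjusted p = 0.0165). Hist1h4m had 26.88, 17.45 and 19.8 against 13.67, 12.52 and 15.34 FPKM (-0.57, SE 0.15, limma adjusted p = 0.0291). All 3 had every S37A library below every vector library.

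Hist1h4n had a like difference with a wider spread, 31.19, 42.89 and 29.4 against 30.83, 20.44 and 17.52 FPKM (-0.59, SE 0.21, limma adjusted p = 0.0766), and 1 of its 2 placements overlaps Hist1h4m, so reads of these genes cannot be told apart. Under quantile normalization no H4 gene was called (limma adjusted p = 0.0636 for Hist1h4i, 0.0584 for Hist1h4j and 0.0545 for Hist1h4m). Hist1h4i also lost its call under median-ratio scaling, with no filter and without vector 1, vector 2, S37A 1 or S37A 3 (limma adjusted p = 0.0683 to 0.109). Hist1h4j also lost it with the replicate block (limma adjusted p = 0.0551) and without vector 3 or S37A 3 (0.0509 and 0.0627). Hist1h4m also lost it under median-ratio scaling (0.0558), with no filter (0.0634) and without vector 3 or any S37A library (limma adjusted p = 0.0577 to 0.087). Hist1h4n was called in 2 other fits (lowest limma adjusted p = 0.0227), among them without S37A 1 (-0.81, limma adjusted p = 0.028).

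By position, the falls lay in Hist1 and Hist3 and none in Hist2. The Hist1 cluster on chromosome 13 forms a pair of blocks in the files' mm10 coordinates. In chr13:21715713-22043658, 12 of 21 tested genes fell (median -0.26), and in chr13:23531044-23934913, 10 of 29 fell (median -0.21). Of all tested genes 19.9% were called lower and 6.06% higher. The falls among the 50 tested Hist1 genes numbered 13 under median-ratio scaling, 8 under quantile normalization and 9 without S37A 3. The share of all genes called lower was then 8.14%, 7.96% and 5.045%. The blocks were not tested against each other. In Hist2, chr3:96219916-96270192, none of 5 tested genes fell and Hist2h3c2 rose, and the cluster summed to 103.1, 88.96 and 97.4 against 92.07, 103 and 94.17 FPKM. That sum is mostly Hist2h2aa1, and the difference between the clusters was not tested.

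Most H2A and H2B genes stand in head-to-head pairs that share an upstream region. Of 14 such pairs with starts within 1000 bases of each other, 13 join an H2A and an H2B gene. In the 9 of these with both genes tested, both had a negative difference (the Hist2 pair of Hist2h2ac and Hist2h2be is at -0.06 and 0.00, and Hist2h2be turns positive under the other scalings). Hist1h2ae and Hist1h2bg, 176 bases apart, and Hist1h2ah and Hist1h2bk, 302 bases apart, were the pairs in which both fell. The pair of Hist1h2ac and Hist1h2bc, 251 bases apart, had the most unequal values, -0.54 and -0.10.

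The promoters of 57 histone genes were matched to RefSeq (GRCm38.p6), each from 250 bases before to 50 after the start. CCAAT, the letters bound by NF-Y, occurred on either strand in 84.2% of them and in 37.8% of 26968 other promoters of the same length. It was in all matched H1, H2A, H2B and H3 promoters and in 3 of 12 H4 promoters. The octamer ATTTGCAT, bound by Pou2f1, occurred in 24.6% of the histone promoters, only in those of H2A (7 of 16) and H2B (7 of 14), beside 1.71% of other promoters. TATAAA was in 61.4%, beside 14.1%, and CTTTGAT, letters bound by the TCF/LEF partners of β-catenin, in 4 of 57 (7.02%), beside 3.72%.

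The 150 bases before the start are shown for 4 genes, 3 that fell and the 1 that rose. They are on the strand of the gene, with CCAAT, ATTTGCAT and TATAAA on either strand in capitals. They lie at chr13:23571250-23571399 for Hist1h2bg, chr13:22035671-22035820 for Hist1h2bk, chr13:23575613-23575762 for Hist1h3d and chr3:96239128-96239277 for Hist2h3c2.
Hist1h2bg: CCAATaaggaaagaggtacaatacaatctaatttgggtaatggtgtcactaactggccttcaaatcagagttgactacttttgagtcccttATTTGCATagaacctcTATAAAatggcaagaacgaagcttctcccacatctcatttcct
Hist1h2bk: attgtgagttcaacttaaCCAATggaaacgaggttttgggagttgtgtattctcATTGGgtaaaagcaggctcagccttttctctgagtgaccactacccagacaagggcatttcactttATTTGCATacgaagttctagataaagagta
Hist1h3d: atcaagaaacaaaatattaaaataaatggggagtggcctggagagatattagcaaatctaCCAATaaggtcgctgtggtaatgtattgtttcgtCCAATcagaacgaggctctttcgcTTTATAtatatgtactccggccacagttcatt
Hist2h3c2: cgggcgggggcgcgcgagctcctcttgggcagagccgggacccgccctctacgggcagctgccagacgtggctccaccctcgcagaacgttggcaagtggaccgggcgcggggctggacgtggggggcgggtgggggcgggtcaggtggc

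Hist1h2bg carries a CCAAT, an octamer and a TATAAA in order towards the start. Hist1h2bk, which fell from a mean of 13.44 to 11.42 FPKM (-0.22, limma adjusted p = 0.0186; 0.0718 under median-ratio scaling, 0.0724 under quantile normalization, 0.0586 without S37A 2 and 0.0541 without S37A 3; named after its values were seen), has the octamer and a pair of CCAAT elements. Hist1h3d has 2 CCAAT and a TATAAA, and the stretch before Hist2h3c2 holds none of these letters, though the longer window of that gene contains a CCAAT. Lack of octamer and TATAAA was not particular to the gene that rose. The longer windows of Hist1h2bj, Hist1h2bl and Hist1h3e, which fell, and of Hist1h1c, not called, also held neither. Over the matched genes the octamer was in 8 of 20 promoters of genes that fell and 4 of 28 of genes tested and not called. The counts were 17 of 20 and 23 of 28 for CCAAT, 15 of 20 and 16 of 28 for TATAAA, and 2 of 20 and 2 of 28 for CTTTGAT. These are counts of letters, not of bound sites, and their link to the differences was not tested. Windows of head-to-head pairs overlap, so 1 octamer can count for both genes, as in Hist1h2ae with Hist1h2bg and Hist1h2ah with Hist1h2bk. The counts by call also pool all types, though only H2A and H2B promoters held the octamer.

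Falls occurred both with and without an annotated stem-loop. With a stem-loop 15 of 37 tested genes fell (median -0.22), and without 8 of 19 fell (median -0.23), beside 19.9% of all tested genes called lower. Of histone genes with more than 100 annotated bases after the stem-loop, as a longer polyadenylated form would have, 9 of 17 fell (median -0.20). Of those with at most 100 bases 6 of 20 fell (median -0.22). In this last split the group with the larger share of falls had the smaller median fall. These groups were not tested against each other.

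Near-identical coding sequence limits how far these values belong to single genes. Over the 67 members with a coding sequence a median of 73.1% of 50-base coding windows occurred in another member. Among the 10 tested genes with under 50% of their windows shared, 9 had a negative difference and 3 fell (median -0.14). Among the 46 with more, 43 had a negative difference and 20 fell (median -0.23). Of all tested genes 19.9% were called lower, and the share below 0 is not given. With 10 genes, a count of 3 falls is not far from that share. These 10 hold all 5 tested H1 genes, which share 0% to 26.6%.

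Of genes that act on histone mRNA (processing, transcription and decay), 10 of 25 tested fell and 1 rose, with a median of -0.14. Of all tested genes 19.9% were called lower and 6.06% higher. The falls numbered 6 under median-ratio scaling, 5 with the replicate block and 3 without S37A 2 or without S37A 3. The share of all genes called lower was then 8.14%, 9.92%, 7.22% and 5.04%. Nfya, the subunit of NF-Y that contacts CCAAT, fell from 9.833, 10.35 and 9.591 to 7.434, 7.102 and 7.214 FPKM (-0.40, limma adjusted p = 0.0034). Ncbp1, the large subunit of the nuclear cap-binding complex, fell from a mean of 23.31 to 19.39 FPKM (-0.25, limma adjusted p = 0.0124), and Zcchc11, a uridylyltransferase that tails histone mRNA, from 4.356 to 3.514 FPKM (-0.25, limma adjusted p = 0.0134; 0.056 under quantile normalization).

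The called rise was Ctif, a factor in translation of capped histone mRNA, from a mean of 6.168 to 7.495 FPKM (0.25, limma adjusted p = 0.0107). Slbp and Npat were named after their values were seen. Slbp, the stem-loop binding protein, had 11.61, 13.97 and 12.67 against 11.16, 10.05 and 10.39 FPKM (-0.25, limma adjusted p = 0.0361) and was called in 6 of 15 other fits. It lost its call under each of the 3 other scalings and with no filter (limma adjusted p = 0.0627 to 0.0995), with the replicate block (0.0857) and without vector 2, vector 3, S37A 2 or S37A 3 (limma adjusted p = 0.0791 to 0.106). Npat, the coactivator of the clusters, had 3.093, 3.286 and 2.938 against 2.506, 2.379 and 2.457 FPKM (-0.25, limma adjusted p = 0.0155; 0.0513 under quantile normalization, 0.0547 without S37A 2 and 0.0565 without S37A 3). In both the groups did not overlap. Nfya, Ncbp1 and Ctif kept their call in every other fit that tested them.

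Histone genes outside the clusters, most of them variants that are not tied to S phase, had 5 of 11 tested genes called lower and none higher (median -0.17). Of all tested genes 19.9% were called lower and 6.06% higher. The falls numbered 2 under median-ratio scaling, 3 with the replicate block and 0 to 5 with each library left out (0 without S37A 3, 1 without vector 2, vector 3 or S37A 1, 2 without S37A 2). The share of all genes called lower was then 8.14%, 9.92% and 5.04% to 19.99%. H1f0, a linker of resting cells, fell from a mean of 28.33 to 23.83 FPKM (-0.24, limma adjusted p = 0.0158; 0.0573 without S37A 3). Of histone chaperones and the genes that acetylate new histones 14 of 26 fell and none rose (median -0.20). Under median-ratio scaling 9 fell and 1 rose, beside 8.14% of all genes lower and 10.3% higher. Without vector 3, S37A 1, S37A 2 and S37A 3 the falls numbered 8, 7, 7 and 3. The share of all genes called lower was then 10.45%, 11.42%, 7.22% and 5.04%. Asf1b, which hands H3 and H4 to the replication fork, fell from 3.2 to 1.93 FPKM (-0.52, limma adjusted p = 0.011), and Chaf1b, of the assembly factor CAF-1, from 4.304 to 2.255 FPKM (-0.69, limma adjusted p = 0.0112), and both kept their call in all 15 other fits.

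S-phase genes had the highest share of falls of these lists. Of 42 tested, all had a negative difference, under each of the 4 scalings too, and 36 fell (85.7%), with a median of -0.41. Beside this, 23 of 56 histone genes fell, with a median of -0.22, and 19.9% of all tested genes, with a median of -0.07. Uhrf1, which maintains DNA methylation behind the fork, fell from 3.807, 5.516 and 5.068 to 2.341, 2.514 and 2.68 FPKM (-0.71, limma adjusted p = 0.00855), and Mcm2, of the replicative helicase and also in the chaperone list, from 9.5, 13.11 and 11.22 to 6.699, 7.167 and 6.859 FPKM (-0.62, limma adjusted p = 0.00919). Rpa2, of the single-strand binding complex, fell from a mean of 5.351 to 3.963 FPKM (-0.36, limma adjusted p = 0.00558). These 3 genes were called in every fit that tested them. The falls numbered 31 under median-ratio scaling, and 24, 24, 20 and 18 without vector 3, S37A 1, S37A 2 and S37A 3. The share of all genes called lower was then 8.14%, and 10.45%, 11.42%, 7.22% and 5.04%. The lists were not tested against each other.

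As a list read for RNAs that also lack a standard poly(A) tail, 127 small nucleolar and other such RNAs were in the files, and 34 were tested. Their median was 0.00 (-0.21 to 0.32 with each library left out), 2 fell and none rose, beside 19.9% of all tested genes lower and 6.06% higher. Terc, the telomerase RNA, fell from a mean of 6.833 to 4.619 FPKM (-0.49, limma adjusted p = 0.0171), as in all 16 other fits. The other fall, Snora28 (-4.79, limma adjusted p = 0.0453), was called in 3 of 16 other fits. Single RNAs of this list varied widely: Snora75 was at 3.67 and was not called (limma adjusted p = 0.0725). The list median is therefore no steady reference.

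**Figure D5:**
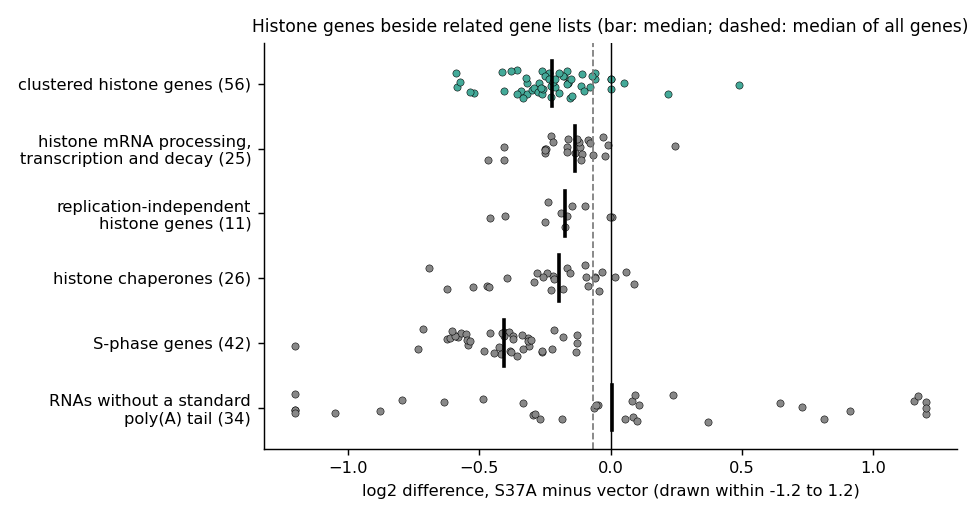
Log2 difference, S37A minus vector, of each tested gene of the clustered histone genes and of 5 related lists (number tested in brackets), with a bar at each list's median and a dashed line at the median of all tested genes; values beyond 1.2 are drawn at the edge. The medians run from -0.41 for S-phase genes to 0.00 for RNAs without a standard poly(A) tail, and the histone genes lie at -0.22.

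The libraries were alike in depth, with 45.6 M to 50.3 M inferred fragments in the vector libraries and 40.1 M to 46.2 M in the S37A libraries. Stromal markers were abundant in all, led by Acta2 and Tagln: 4 of 10 rose, 1 fell, and their sum was higher in the S37A libraries. Of 11 tested macrophage markers 9 rose (median 1.203), and the 13 listed summed to 24.3 to 30.6 FPKM in the vector and 62.8 to 70.8 FPKM in the S37A libraries. Epithelial markers summed to 17.9 to 23.9 and 16.1 to 25.6 FPKM and endothelial ones to 99.6 to 112.7 and 95.4 to 99.1 FPKM, with none called of 7 tested in each list. Of all tested genes 6.06% were called higher and 19.9% lower. The prostate secretory gene Pbsn and lymphocyte and erythroid markers were at or near 0. The part of the macrophage and stromal markers in the histone differences was not tested.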

How the data were processed

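RNA was measured in 3 vector and 3 S37A libraries, grouped by sample title. TopHat and Cufflinks (versions not given), bcl2fastq 1.8.3 and the build mm10 are named in the submitters' processing notes. The deposited values are FPKM per transcript model with confidence bounds, and a coverage signal per model, per the file headers. The coverage was used only to check depth. Read counts are not in these files, so depth and fragments per model (for example 89.3 to 204.1 for Hist1h3d) were inferred from the width of the deposited FPKM intervals.

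Models were added up by symbol, and 5 genes with a status other than OK were left out. For the 12022 genes that averaged 0.5 FPKM or more, limma 3.58.1 in R 4.3.3 was fitted to log2(FPKM + 1), with a trend on intensity, without a block, and with p adjusted by Benjamini-Hochberg over all of them at 0.05. Single genes also had a two-sided exact permutation test, which cannot go below 0.1. The script was tested on simulated data. The rule for genes named with values was the 3 most abundant of each type, up to 3 called rises and falls of each type, 2 on either side of the filter, and up to 4 of each related list by p. Others are named outside this rule, among them Hist1h2ae, Hist1h2ba, Hist1h2bk, Hist1h3h, Hist2h3b, Slbp and Npat. Members, lists and tests were chosen with earlier results of these data known. The alternatives were other scalings, pseudocounts, filters, limma settings, a replicate block, symbols with 1 model, and each library left out.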

Additional observations from a re-analysis of the deposited data

How the results depend on the processing

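FPKM is relative to each library's own total, low genes rest on few inferred fragments (6.7 to 15.3 for Hist1h4f), and near-identical genes share reads. Called lower, the histone genes numbered 23 in the reported fit, 13 with median-ratio scaling, 9 with quantile normalization, 14 with no filter, 15 with the replicate block and 10 to 18 with each library left out. Called higher, they numbered 1, then 0 with the replicate block and with symbols of 1 transcript model (which leaves out Hist2h3c2), and 0 to 1 with each library left out. All genes called higher went from 729 to 1243 (median-ratio), 1094 (quantile), 1238 (sample weights), 442 (replicate block) and 298 to 747 (each library left out), and all genes called lower from 2393 to 978, 957, 1500 (without the 100 most abundant genes), 3655 (sample weights), 1193 (replicate block) and 606 to 2401. Whether the replicate numbers pair the libraries was not settled. With each gene taken as its deviation from the group mean, same-numbered vector and S37A libraries had correlations of -0.12, 0.02 and 0.10 across genes. Not every library correlated best with its own number, but deviations among 3 libraries per group are too few to exclude pairing. The median difference of the histone genes was -0.17 with median-ratio scaling, -0.16 with quantile normalization and -0.28 with a pseudocount of 0.1 FPKM, and it stayed below that of all genes in each, which was 0.00, -0.01 and -0.08.

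The S37A over vector ratio of summed FPKM, in the order median-ratio, quantile, without the 100 most abundant genes, was 0.933, 0.909 and 0.909 for all histone genes, 1.034, 1.003 and 1.008 for H1, 0.921, 0.904 and 0.898 for H2A, and 1.05, 1.015 and 1.023 for Hist2. Median-ratio scaling gave 0.944 for H2B, 0.973 for H3 (0.981 with quantile) and 0.922 for Hist1. With symbols of 1 model the ratio was 0.864 for all, 0.779 for H2A, 0.862 for H2B, 0.853 for H3 and 1.032 for Hist2. Without the 3 most abundant histone genes it was 0.834 for all, 0.898 for H1, 0.781 for H2A, 0.865 for H2B, 0.824 for Hist1 and 1.262 for Hist2, and over genes with under 50% of coding windows shared, chosen after seeing the data, 0.943. With each library left out H1 ranged from 0.957 to 1.009, H2A from 0.85 to 0.91, H3 from 0.898 to 0.956 and Hist2 from 0.962 to 1.035. The sum without models under 200 bases was not run, since the shortest model has 312 bases.

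Among the named genes, 5 with values near 0 changed sign. Hist1h1d was 0.0648 (median-ratio), 0.0732 (quantile) and 0.0314 (without the 100 most abundant genes), and -0.0344 to 0.032 with each library left out. Hist1h1c ranged from -0.0415 to 0.0373 and Hist1h3b from -0.0901 to 0.178 with each library left out. Hist2h2aa1 was 0.0118 with median-ratio scaling. Hist2h2be was 0.0272 (median-ratio), 0.046 (quantile), 0.0131 (without the 100 most abundant genes) and 0.0319 (sample weights), and -0.0228 to 0.0343 with each library left out. The causes of these changes were not tested.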
